A study of Citrus trifoliata with 6 samples.

Results

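The genes described here are those of cell wall loosening and pectin remodelling in roots of Poncirus trifoliata, the trifoliate orange used as a citrus rootstock. They were chosen by annotation alone: a gene was included when the text of its best match in the NCBI nr protein database named an expansin, a xyloglucan endotransglucosylase or endotransglycosylase, a pectinesterase, a pectate lyase, a polygalacturonase, an endoglucanase, a cellulose synthase, an arabinogalactan protein or an extensin. Of the 22589 genes listed in the series, 136 matched, and they fall into 13 classes once the inhibitors, the non-catalytic polygalacturonase subunit and the cellulose synthase-like genes are set apart. No measured value was used in the choice.

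Lateral roots were taken 3 months post-inoculation from plants inoculated with the arbuscular mycorrhizal fungus Glomus versiforme, at about 3000 spores a pot (Gv), and from plants without inoculum (control). Both groups were seedlings in sterile quartz sand, fed with Hoagland solution at 20 μM phosphorus, and each group has 3 libraries described as biological replicates, each a pool of plants from different pots. The RNA is of whole lateral roots, so cells with arbuscules, cells without them and all other root cell types are mixed in every Gv library. In such samples fewer cells of a type cannot be told apart from less RNA per cell.

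A growing plant wall is a network of cellulose microfibrils tied by xyloglucan and embedded in pectin. Cellulose synthases make the microfibrils at the plasma membrane, expansins and xyloglucan endotransglucosylase/hydrolases (XTHs) loosen the network, pectinesterases remove methyl groups from pectin, and polygalacturonases and pectate lyases cut the demethylated chains. In mycorrhizal roots the fungus crosses epidermal walls and grows between cortical cells, and inside cortical cells each arbuscule is enclosed by a plant membrane and a thin interface matrix that contains wall polymers. Earlier work on other hosts has placed expansins, XTHs and arabinogalactan proteins in arbuscule-containing cells.

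The Gv libraries held 4.34 M to 4.63 M reads on genes (M, mega), against 4.51 M to 4.71 M in the control libraries. The 5 colonization genes looked at (2 PT4 genes, Exo70I, HA1 and MYB1) had 31 to 5257 reads in each Gv library and at most 3 in any control library. The paper reported them as raised in Gv from these same libraries, so they are no independent check of the labels. In these 5 genes Gv replicate 3 held 4.54 to 10.5 times the mean RPKM (reads per kilobase of gene length, scaled to the counted reads of the library) of Gv replicates 1 and 2. The number 3 libraries stood apart in both groups and deviated together from their group means (correlation 0.613). Values are therefore given per library and results that rest on number 3 also without it. Numbers 1 and 2 did not form clear pairs, since Gv replicate 1 correlated more with control replicate 2 (0.429) than with control replicate 1 (0.357). Ratios within a replicate number are descriptive. Markers of other root tissues were detected at levels that overlapped between the groups. Their summed RPKM was 2.36 to 4.75 in Gv and 3.77 to 9.72 in control for 3 endodermal Casparian strip genes. For 13 genes listed for xylem it was 112 to 136 in Gv and 105 to 181 in control. That list was found by the words laccase, irregular xylem or xylem cysteine, so any gene annotated as a laccase was counted. For 2 mitotic cyclins the sum was 15.5 to 22.1 in Gv and 15.3 to 21.4 in control. The 7 genes of chlorophyll-binding proteins, which mark shoot tissue, summed to 6.37 to 18.6 in Gv and 7.86 to 23.6 in control. No root hair marker was found by its annotation.

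The classes of wall gene differed widely in level, and the 2 pectinesterase inhibitors summed to at most 2.76 RPKM in any library. XTHs had the highest summed RPKM on average, with 794, 739 and 327 in Gv replicates 1, 2 and 3 and 683, 1080 and 217 in control replicates 1, 2 and 3. Pectinesterases, the largest class with 31 genes, summed to 622, 632 and 544 RPKM in Gv and to 621, 612 and 477 in control. Both of these sums overlapped between the groups. Cellulose synthases (13 genes) summed to 441, 376 and 411 RPKM in Gv and to 502, 421 and 344 in control, and expansins (13 genes) to 490, 401 and 304 in Gv and to 498, 552 and 132 in control. Arabinogalactan proteins (10 genes) gave 437, 320 and 316 RPKM in Gv and 469, 380 and 311 in control. The pectin-cutting classes and the endoglucanases were lower. Polygalacturonases (18 genes) summed to 162, 151 and 131 RPKM in Gv and 132, 108 and 72.9 in control, so that the lowest Gv sum lay just under the highest control sum and the groups overlapped. Pectate lyases (7 genes) summed to 111, 81.5 and 84.8 RPKM in Gv and to 133, 79.5 and 44.3 in control. Endoglucanases (14 genes) summed to 175, 163 and 185 RPKM in Gv and to 203, 165 and 133 in control.

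**Figure D1:**
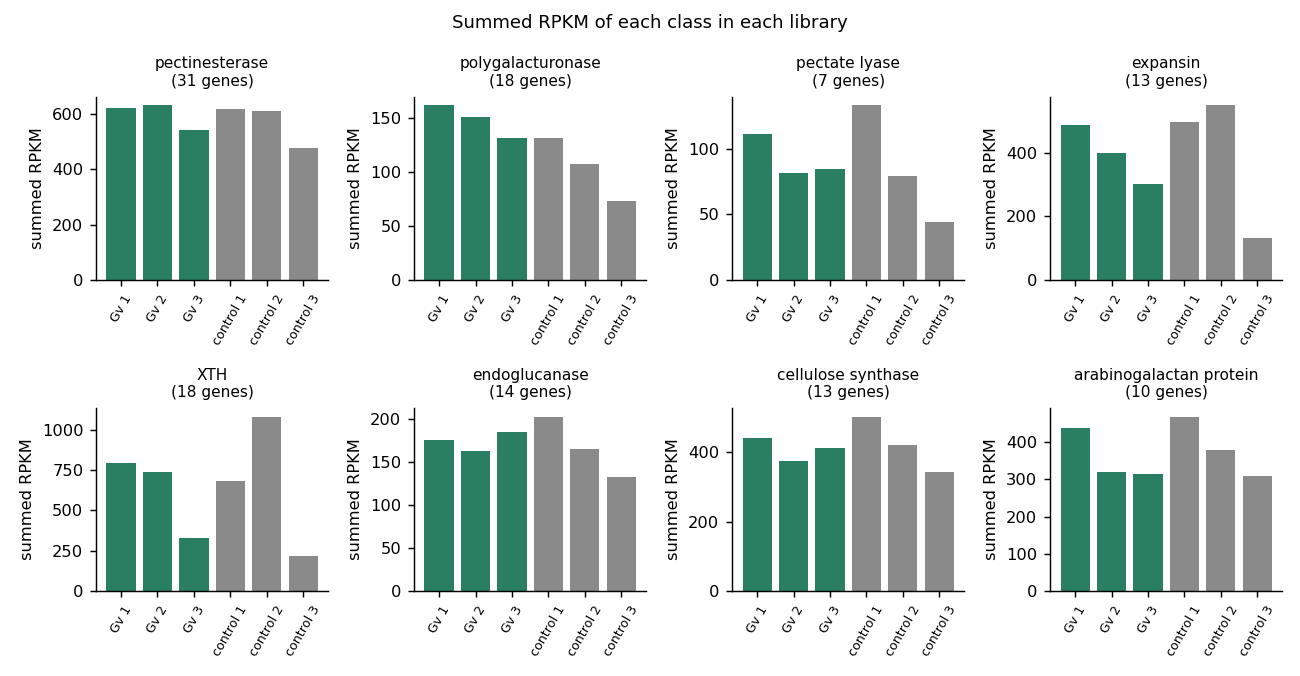
Summed RPKM of the genes of 8 classes in each of the 6 libraries, with Gv libraries in green and control libraries in grey. Control replicate 3 has the lowest bar in all 8 panels. The polygalacturonase sums of the Gv libraries (131 to 162) narrowly overlap those of the control libraries (72.9 to 132).

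The sum of all 136 genes was 3371, 3030 and 2451 RPKM in Gv and 3454, 3559 and 1877 in control, a mean of 2950 ± 465 in Gv and 2963 ± 942 in control (SD, n = 3 each). Gv thus differed from control by much less than the libraries of one group differed from each other. Only for polygalacturonases and pectinesterases, among the 8 classes plotted, was the sum above its control in each of the 3 replicate numbers. Single genes set several of these sums, since the highest gene made up 67.6% of the polygalacturonase sum, 64.3% of the endoglucanase sum, 60.2% of the expansin sum and 54.1% of the arabinogalactan sum.

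Gene by gene, 88 of the 136 wall genes had enough reads to pass the filter for edgeR's quasi-likelihood test. The other 48 had a median of 8 reads over the 6 libraries together and at most 255, and 26 of them had fewer than 10. Calls required an adjusted p under 0.05 (Benjamini-Hochberg over the 16281 genes tested) together with a change of at least 2-fold. The test without a replicate block called 0 of the 88 wall genes in either direction, against 0% of all genes tested, while 9 wall genes (10.2%) had an unadjusted p under 0.05, against 4.57% of all genes tested. Of these 9, 4 had the higher level in Gv and 5 the lower, whereas among all genes tested 489 were higher and 255 lower. With the replicate number as a block, 2 wall genes (2.27%) were called higher and 0 lower, against 0.958% and 0.0369% of all genes tested. DESeq2 without a block also called 2 higher and 0 lower, against 1.15% and 0.0369%, and the NOISeq criterion of the study, re-implemented here, gave 3 higher and 0 lower, against 1.35% and 0.323% of all genes listed. Without Gv replicate 3 the unblocked test called 0 wall genes, against 0.410% of all genes tested higher and 0.00603% lower. The block called the cellulose synthase orange1.1t04027 and the endoglucanase Cs1g21260, DESeq2 called orange1.1t04027 and the polygalacturonase Cs7g08820, and the NOISeq criterion took Cs1g21260, Cs7g08820 and the arabinogalactan gene Cs8g16830. The last of these was named after its values were seen and rests on a single library, with 208, 2 and 8 reads in Gv, against 28, 8 and 1 in control. The re-implemented criterion took more genes than the paper reported with NOISeq, both higher and lower. A gene taken by the re-implementation is therefore not necessarily one that the paper called.

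The fitted changes of most wall genes were small. Of the 88 tested, 79 (89.8%) had a fitted change under 2-fold, against 96.3% of all genes tested, and 41 (46.6%) lay above 0, against 48.0%. The median log2 fold change of the 88 was -0.05, against -0.01 over all genes tested. By class it was -0.04 for 17 pectinesterases, 0.18 for 10 polygalacturonases, 0.08 for 6 pectate lyases, 0.04 for 8 expansins, -0.14 for 14 XTHs, 0.01 for 8 endoglucanases, 0.22 for 11 cellulose synthases and -0.22 for 6 arabinogalactan proteins. Over other scalings and filters, the block and single libraries left out, the median of pectinesterases stayed below 0 and that of polygalacturonases above 0, whereas those of the other 6 classes took both signs, from -0.69 to 0.57 in XTHs. By RPKM, the Gv libraries were all higher than the control libraries in 4 of the 88 (4.55%), against 5.35% of all genes tested, and all lower in 9 (10.2%), against 3.26%. The 9 lower genes comprise 4 pectinesterases, 2 arabinogalactan proteins, 1 expansin, 1 pectate lyase and 1 cellulose synthase-like gene, and the 4 higher ones 2 cellulose synthases, 1 pectinesterase and 1 polygalacturonase.

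**Figure D2:**
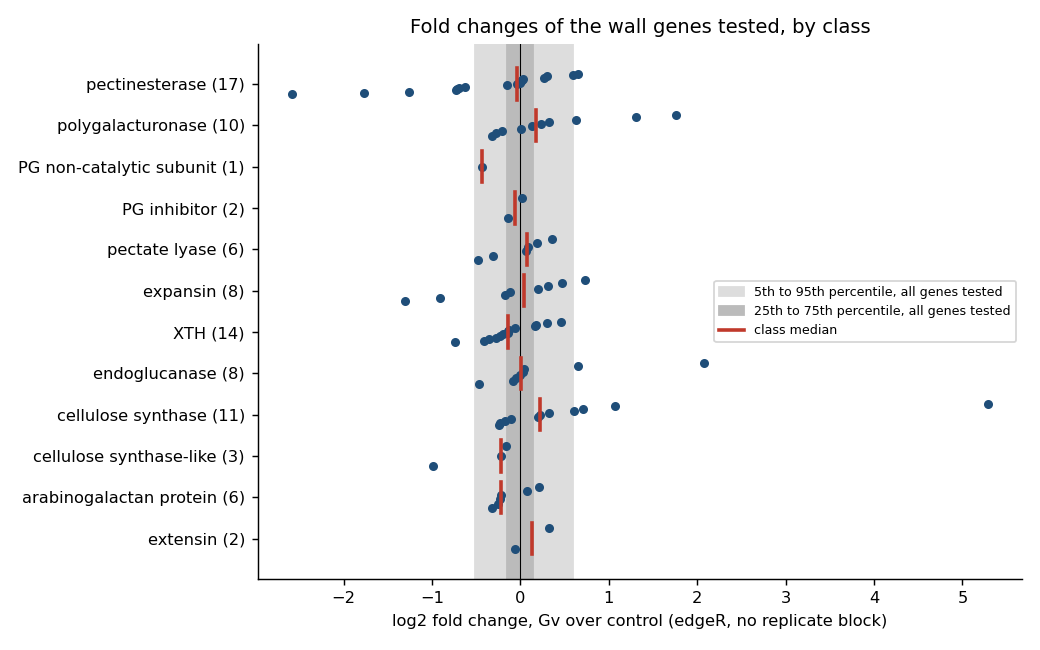
Log2 fold change (Gv over control, edgeR without the replicate block) of the 88 wall genes tested, one point per gene and one row per class, with the number tested in brackets. Red lines are class medians and grey bands hold the 25th to 75th and the 5th to 95th percentiles of all 16281 genes tested (-0.15 to 0.14 and -0.51 to 0.60); the cellulose synthase at 5.29 and the pectinesterase at -2.58 are the extreme points.

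Cellulose synthases, which polymerize glucose into cellulose, included the wall gene with the largest fitted change. The gene orange1.1t04027, annotated as a probable cellulose synthase A catalytic subunit 5, had 14, 22 and 129 reads in Gv, against 2, 0 and 2 in control. Each Gv library was thus above each control library, and Gv replicate 3 carried most of the reads. Its RPKM was 0.527, 0.786 and 4.91 in Gv, against 0.0733, 0 and 0.0725 in control, which is far below the main cellulose synthases of these roots. The ratio of the summed, depth-scaled reads was 42.6 (95% counting interval 16.3 to 158, which covers counting error only). The log2 fold change was 5.29 ± 1.26 (SE) with an adjusted p of 0.491 by edgeR's quasi-likelihood test (Benjamini-Hochberg), so it was not called without the block. With the block it was 5.22 ± 0.63 (SE) with an adjusted p of 0.0317 by the same test, and over all alternatives the adjusted p ran from 5.58e-05 to 1.00. Leaving out Gv replicate 3 gave 3.65 with an adjusted p of 0.226, and the block without replicate 3 of both groups gave an adjusted p of 0.134, as against 0.0627 without replicate 2 (edgeR, Benjamini-Hochberg).

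The abundant cellulose synthases showed no change of that kind. Cs3g21530, the highest of them, had 82.8, 83.5 and 85.4 RPKM in Gv and 123, 90.9 and 80.8 in control, with a log2 fold change of -0.24 (95% interval from -0.75 to 0.27). Cs7g05150 had 66.3, 66.4 and 93.2 RPKM in Gv and 91.9, 84.3 and 85.8 in control. In both genes the groups overlapped. Cs5g33670, annotated as a catalytic subunit 3, is a weakly expressed member with 95, 87 and 106 reads in Gv, against 82, 59 and 53 in control. All its Gv libraries lay above the control libraries, the log2 fold change was 0.60 ± 0.23 (SE), and it was called by none of the tests.

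Among the 4 cellulose synthase-like genes, whose products belong to the family that makes other wall polysaccharides, 3 were tested and all had fitted values below 0. Cs4g08480, annotated as CslE, had 16, 9 and 12 reads in Gv, against 29, 25 and 22 in control. The groups did not overlap and the log2 fold change was -0.99 ± 0.32 (SE), with an adjusted p of 0.799 by edgeR's quasi-likelihood test (Benjamini-Hochberg). Cs5g01960 (20.4, 24.4 and 20.1 RPKM in Gv, and 19.4, 17.4 and 39.2 in control) and Cs5g01970 (12.5, 12.9 and 8.01 in Gv, and 12.4, 9.78 and 15.0 in control), both annotated as CslG3-like, overlapped between the groups. The fitted values of these 2 genes were -0.23 and -0.16, and they turned positive without the number 3 libraries.

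Endoglucanases cut beta-1,4-glucans, and membrane-bound members of the family take part in cellulose synthesis. Cs1g21260, an endo-1,4-beta-glucanase, had 31, 30 and 258 reads in Gv, against 7, 6 and 66 in control. Replicate 3 was far above the other replicates in both groups, so the Gv range (1.85 to 17.0 RPKM) overlapped the control range (0.364 to 4.13 RPKM). Within each replicate number, however, the Gv library was 4.55, 5.09 and 4.11 times the control library for numbers 1, 2 and 3. The unblocked log2 fold change was 2.08 ± 1.21 (SE), with an adjusted p of 1.00 by edgeR's quasi-likelihood test (Benjamini-Hochberg). With the block it was 2.12 ± 0.19 (SE) and was called, with an adjusted p of 0.0119 by the same test. Over all alternatives the adjusted p ran from 7.08e-05 to 1.00, and with the block but without replicate 3 of both groups it was 0.0787. The unblocked log2 fold change was 0.26 when Gv replicate 3 was left out and 4.04 when control replicate 3 was left out.

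No other endoglucanase was called, and in each of the others tested the groups overlapped. Cs3g01110, annotated as endoglucanase 25, gave most of the class total with 118, 99.7 and 111 RPKM in Gv and 127, 107 and 94.3 in control, and its log2 fold change was -0.01 (95% interval from -0.46 to 0.44). Cs5g02320 had 24.1, 32.1 and 32.8 RPKM in Gv and 41.7, 31.9 and 19.3 in control, with a log2 fold change of -0.08. Cs2g17090, named after its values were seen, had 14.1, 10.04 and 7.68 RPKM in Gv and 10.1, 7.49 and 2.51 in control, so that Gv was above control within each replicate number, with a log2 fold change of 0.65.

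**Figure D3:**
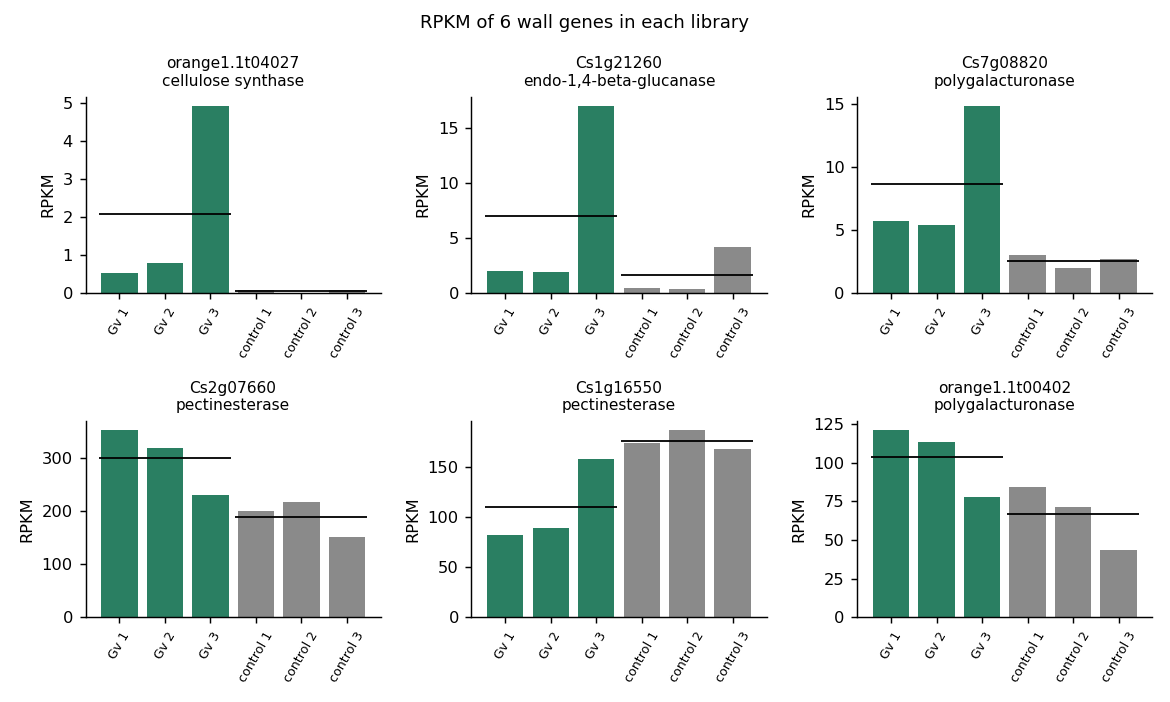
RPKM of 6 wall genes in each of the 6 libraries, with Gv libraries in green, control libraries in grey and black lines at the group means. In the upper row Gv replicate 3 is the highest Gv bar (4.91, 17.0 and 14.8 RPKM); in the lower row the pectinesterases Cs2g07660 and Cs1g16550 lie on opposite sides of their controls.

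Polygalacturonases cut demethylated pectin chains, and 2 of the 10 tested had fitted changes of over 2-fold. One of them, orange1.1t01738, was named after its values were seen, with 3.10, 1.72 and 0.783 RPKM in Gv and 0.922, 0.882 and 0.414 in control, where Gv replicate 3 lay within the control range. The other, Cs7g08820, had 124, 124 and 319 reads in Gv, against 66, 45 and 61 in control, which is 5.69, 5.41 and 14.8 RPKM in Gv and 2.95, 1.93 and 2.70 RPKM in control. All Gv libraries were above all control libraries, by 1.93, 2.81 and 5.49 times within replicate numbers 1, 2 and 3. The log2 fold change was 1.76 ± 0.43 (SE), with an adjusted p of 0.524 by edgeR's quasi-likelihood test (Benjamini-Hochberg). It was not called with the block either, whereas DESeq2 called it with an adjusted p of 0.0182, within a range of 0.00157 to 1.00 over all alternatives. It was 1.14 on the log2 scale when Gv replicate 3 was left out.

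The most abundant polygalacturonase, orange1.1t00402, had 121, 114 and 77.7 RPKM in Gv and 84.6, 71.6 and 43.8 in control. The groups overlapped and replicate 3 was the lowest in both, while the Gv library was 1.43, 1.59 and 1.78 times its control in numbers 1, 2 and 3. Its log2 fold change was 0.63 ± 0.31 (SE) without the block and 0.66 ± 0.12 (SE) with it, and neither fit called it. The next in level, Cs5g03170, had 9.74, 10.2 and 13.1 RPKM in Gv and 19.4, 14.2 and 5.76 in control, with control libraries on both sides of the Gv range. Cs9g19250, which did not pass the filter, had 6, 2 and 9 reads in Gv, against 0 in each control library, at least 5.85-fold higher when the control group is set to 3 reads in all. This gene and the pectinesterase Cs1g05720 are among 148 genes in the series with reads in all Gv libraries and none in control.

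Plants restrain these enzymes with inhibitors, and in each of those tested the Gv and control libraries overlapped. The polygalacturonase-inhibiting protein Cs7g01980, of the leucine-rich-repeat type that acts mainly on enzymes of pathogens, had 60.4, 41.5 and 52.4 RPKM in Gv and 82.9, 56.0 and 29.4 in control. The other, Cs7g18970, had 4.59, 13.2 and 13.6 RPKM in Gv and 7.30, 12.1 and 11.1 in control. Cs7g08620, the non-catalytic polygalacturonase subunit, had 32.8, 66.7 and 34.8 RPKM in Gv and 84.5, 57.6 and 37.8 in control. Both pectinesterase inhibitors without an enzyme domain in their annotation (Cs2g01440 and orange1.1t05404) had at most 4 reads in any library and were not tested.

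Pectinesterases lay on both sides of their controls, and the 2 most abundant members differed in direction. Cs2g07660, annotated as pectinesterase 2.2, had 352, 319 and 230 RPKM in Gv and 200, 216 and 151 in control. All its Gv libraries were above all control libraries, with a log2 fold change of 0.66 ± 0.26 (SE, 95% interval 0.04 to 1.27). Cs1g16550, annotated as pectinesterase 3, had 82.1, 88.5 and 158 RPKM in Gv and 174, 187 and 168 in control. Here all Gv libraries were below all control libraries, with a log2 fold change of -0.70 ± 0.28 (SE, 95% interval from -1.38 to -0.02). Neither gene was called with or without the block. The lower level of Cs1g16550 came from replicates 1 and 2, where Gv was 0.472 and 0.475 times control, against 0.945 times in replicate 3. When both number 3 libraries were left out, an alternative added after the data had been seen, edgeR's quasi-likelihood test called Cs1g16550 lower, with a log2 fold change of -1.11 and an adjusted p of 0.0192 (Benjamini-Hochberg), within a range of 0.0192 to 1.00 over all alternatives. It was the only wall gene called in that setting, which called 1.02% of all genes tested higher and 0.239% lower.

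The other pectinesterases with all Gv libraries below all control libraries were weakly expressed. Cs4g06630, annotated as a thermostable pectinesterase, had 11, 10 and 12 reads in Gv, against 15, 20 and 173 in control. The groups did not overlap, but control replicate 3 set the size of the difference, since the log2 fold change was -2.58 ± 1.00 (SE) with that library and -0.64 without it. A further 2 genes, named after their values were seen, also had non-overlapping groups. One was orange1.1t00214, with 6, 22 and 25 reads in Gv, against 42, 49 and 39 in control and a log2 fold change of -1.27 ± 0.46 (SE). The other was Cs9g14400, with 0, 1 and 9 reads in Gv, against 11, 11 and 14 in control. Within the replicate numbers, Gv was below control in all 3 pairs for 6 of the 17 pectinesterases tested and above in all 3 for 1, against 13.1% and 16.1% of all genes tested. Cs1g05720, annotated as a pectinesterase with its own inhibitor domain, went the other way with 7, 2 and 22 reads in Gv, against 0 in each control library, at least 10.7-fold higher with the control group set to 3 reads in all. It had too few reads to be tested.

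Pectate lyases cut pectin by elimination rather than hydrolysis. Cs5g06600, the highest of the class, had 52.0, 34.3 and 37.9 RPKM in Gv and 51.7, 29.9 and 14.2 in control. Cs8g11330 had 24.8, 17.9 and 14.4 RPKM in Gv and 43.2, 21.2 and 5.85 in control, and in both genes the groups overlapped. Cs5g34710, annotated as pectate lyase 15, had 44, 47 and 42 reads in Gv, against 67, 70 and 53 in control. It was the only member of the class with non-overlapping groups, its log2 fold change was -0.48 ± 0.20 (SE), and it was not called.

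Expansins loosen the bonds between cellulose and xyloglucan without cutting them. Cs8g01880, a beta-expansin, was the second wall gene by level with 310, 260 and 111 RPKM in Gv and 279, 418 and 53.4 in control. Replicate 3 was the lowest library in both groups, and the log2 fold change of -0.17 had a 95% interval from -1.95 to 1.61, which is wider than 2-fold in both directions. Cs8g18640, annotated as expansin 1, had 75.1, 60.6 and 70.4 RPKM in Gv and 83.2, 45.2 and 19.1 in control. The class member with non-overlapping groups was Cs3g26610, annotated as alpha-expansin 11, with 4, 40 and 23 reads in Gv, against 62, 59 and 46 in control. Its log2 fold change was -1.30 ± 0.62 (SE) and it was not called.

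XTHs cut and rejoin xyloglucan chains between microfibrils. In none of the 14 tested did the Gv and control libraries part, against 5.35% of all genes tested higher and 3.26% lower. In all 3 replicate numbers, 0 lay on one side of their controls, against 16.1% of all genes tested above and 13.1% below. The summed RPKM of this class varied more between replicate numbers than between the groups. Of the 18 genes, 10 carry identifiers from Cs4g03050 to Cs4g03230, and in all 8 of these that were tested replicate 3 was the lowest library in both groups. The highest of them, Cs4g03130, had 230, 185 and 36.6 RPKM in Gv and 136, 335 and 12.1 in control. Its neighbour Cs4g03145, named after its values were seen, had 51.8, 54.5 and 3.69 RPKM in Gv and 41.9, 83.5 and 0.703 in control. The summed RPKM of the 10 genes was 555, 490 and 142 in Gv and 416, 836 and 66.5 in control. Control replicate 2 thus held the highest sum and the number 3 libraries the lowest, with Gv above control in numbers 1 and 3 and below it in number 2. These genes have similar annotations and their counts are of uniquely aligned reads, so reads shared between near-identical copies would be missing from them.

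**Figure D4:**
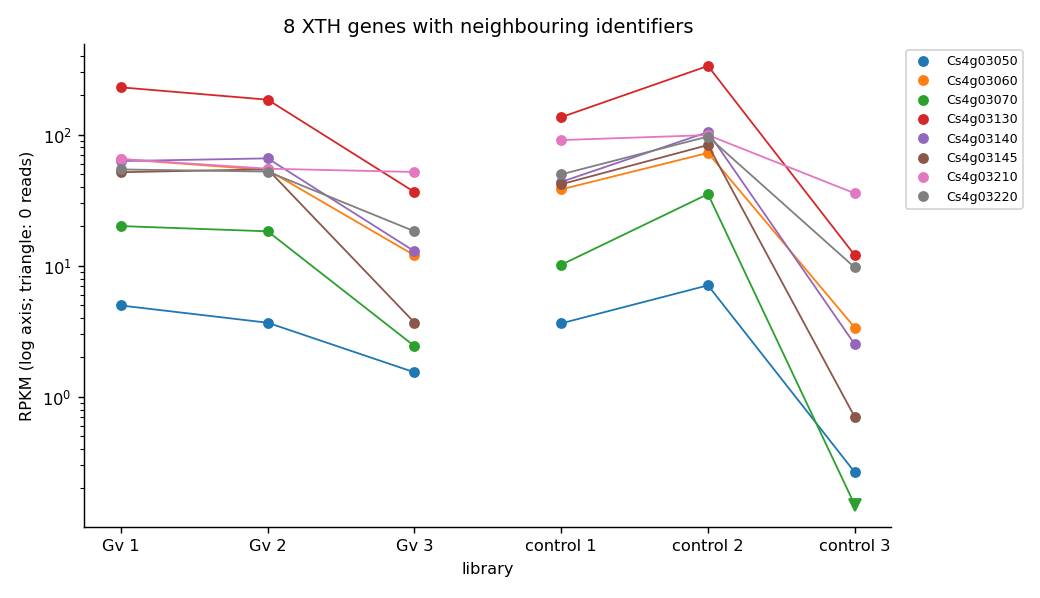
RPKM (log axis) of the 8 tested XTH genes with identifiers from Cs4g03050 to Cs4g03220 in each library, one line per gene within each group, with a triangle for 0 reads. All 8 lines are lowest at replicate 3 in both groups, most steeply in control, where Cs4g03145 reaches 0.703 RPKM.

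The XTHs outside this run were steadier, with sums of 239, 249 and 186 RPKM in Gv and 267, 245 and 150 in control. Cs2g17920, annotated as XTH 10, accounted for 61.5% of them. It had 142, 137 and 126 RPKM in Gv and 170, 134 and 113 in control, a log2 fold change of -0.06 (95% interval from -0.55 to 0.43).

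Arabinogalactan proteins are heavily glycosylated wall and membrane-surface proteins. The fasciclin-like member Cs2g19350 was the highest, with 184, 181 and 187 RPKM in Gv and 232, 203 and 222 in control. All its Gv libraries were below the control libraries, although the difference was small, with a log2 fold change of -0.26 ± 0.14 (SE). Cs7g23810, another fasciclin-like gene, had 13.5, 13.4 and 14.9 RPKM in Gv and 18.1, 15.3 and 15.1 in control and a log2 fold change of -0.23 ± 0.13 (SE). Neither was called. The 6 genes with fasciclin in their annotation summed to 251, 240 and 242 RPKM in Gv and to 289, 266 and 267 in control. These sums did not overlap, and Cs2g19350 made up 77.7% of them. This grouping is not one of the classes, and how often such sums part between the groups was not taken. The sums of the whole arabinogalactan class, given above, overlapped. Cs8g18440, a fasciclin-like gene named after its values were seen, lay the other way with 49.7, 44.2 and 39.1 RPKM in Gv and 37.7, 46.4 and 29.8 in control, overlapping groups and a log2 fold change of 0.21. Cs8g16840, annotated as arabinogalactan protein 2, had 125, 63.7 and 59.4 RPKM in Gv and 155, 98.7 and 32.3 in control, and the groups overlapped. Extensins, structural glycoproteins that can be crosslinked in the wall, had 3 members and low levels. Cs2g30100 had 5, 11 and 43 reads in Gv, against 4, 19 and 41 in control, and Cs3g08520 had 136, 114 and 182 reads in Gv, against 131, 106 and 118 in control.

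The position of the number 3 libraries differed between classes and between the groups. In 29 of the 88 tested (33.0%) replicate 3 was the lowest library in both groups, against 24.5% of all genes tested, and in 6 (6.82%) it was the highest in both, against 30.6%. XTHs made up 11 of the 29. The median of replicate 3 relative to the mean of replicates 1 and 2, on the log2 scale, was 0.02 in Gv and -0.55 in control for the 88 genes, against 0.01 and 0.00 for all genes tested. By class it was -1.47 in Gv and -2.32 in control for XTHs, 0.31 and -1.07 for expansins, -0.13 and -1.03 for pectate lyases, and 0.19 and -0.26 for pectinesterases. In 70 of the 87 genes for which both ratios could be taken, the ratio was higher in Gv than in control. The same share over all genes tested was not taken, so this count has no base rate beside it. Gv replicate 3 was also the library with the most reads of the colonization genes, and the part of either in the other was not tested. The labels do not say what the replicate numbers stand for.

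**Figure D5:**
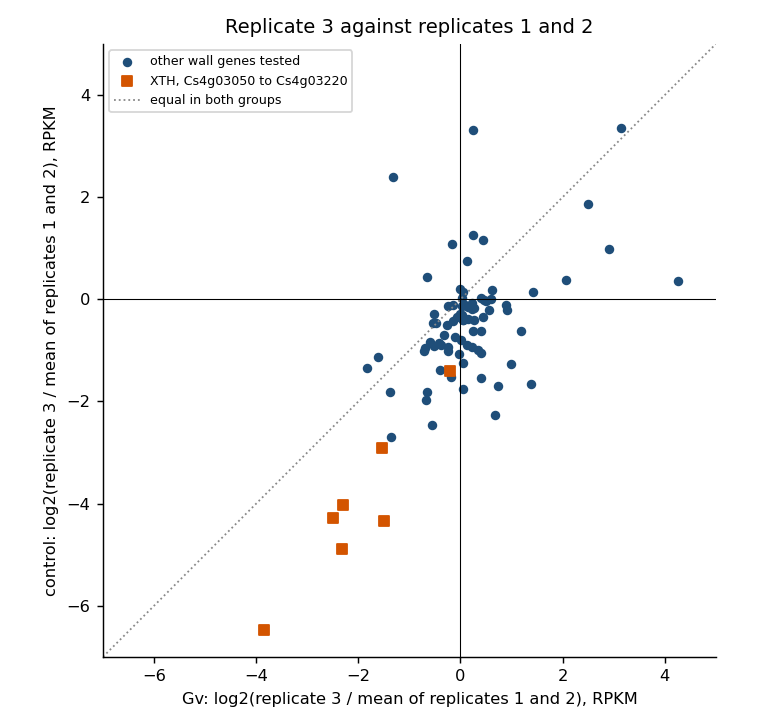
Log2 ratio of replicate 3 to the mean of replicates 1 and 2 (RPKM) for 87 tested wall genes, with Gv on the horizontal and control on the vertical axis; 1 gene with 0 reads in control replicate 3 is not drawn. In 36 genes replicate 3 is under the mean in both groups and in 15 it is over in both. Below the dotted line of equal ratios lie 70 points, among them the 7 XTH genes drawn as squares. These counts were not taken over all genes tested.

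Wall genes outside the annotation rule also held few called genes, but these were lower in Gv. A list of 69 such genes (beta-galactosidases, proline-rich proteins, UDP-sugar enzymes and a transporter, xyloglucan glycosyltransferases, galacturonosyltransferases, COBRA proteins and others) included 46 that were tested. None was called by edgeR with or without the block. An unadjusted p under 0.05 was found for 3 (6.52%), against 4.57% of all genes tested, all with the lower level in Gv. DESeq2 called 1 lower (2.17%, against 0.0369%) and 0 higher, and the NOISeq criterion took 1 lower, against 0.323% of all genes listed, and 0 higher. Beta-galactosidases (11 tested) had a median log2 fold change of 0.08 and galacturonosyltransferases, which build pectin, one of 0.01 (6 tested). All 8 UDP-sugar genes, most of them for enzymes that supply precursors of pectin and hemicellulose, had fitted values below 0, between -0.53 and -0.03, and none was called. The 2 callose synthases stayed close to 0, at -0.03 and 0.01.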

How the data were processed

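The authors filtered reads, mapped them with SOAPaligner/SOAP2 on the Citrus sinensis assembly (up to 2 mismatches a read) and deposited for each gene and library the raw count of uniquely aligned reads. The deposited RPKM is the same count divided by the length of the gene and the total of the library. The annotation version is not given in the sources used here. Reads that differ more from C. sinensis are missing from the counts, and a gene not listed for a library was taken as 0 reads.

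The test was edgeR 4.0.16 (R 4.3.3) with filterByExpr, TMM factors and the quasi-likelihood F test of Gv against control, adjusted by Benjamini-Hochberg over 16281 genes, with standard errors derived from F. Blocking by replicate number gave a biological coefficient of variation of 16.7%, against 29.9% without blocking. Deviations from the group means correlated between same-numbered libraries (0.357, 0.481 and 0.613 for numbers 1, 2 and 3). All exceeded 0.1, so a fit with the replicate number as a block was run beside the main fit, which has no block. Neither the labels nor the paper describe pairs, and numbers 1 and 2 also correlated when crossed (0.429 and 0.272). Fold changes, standard errors and intervals are those of the unblocked fit unless the block is named. Blocked results are given where they change a call.

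Alternatives were DESeq2 1.42.0, other scalings (library totals, upper quartile), other filters (none, or a mean count of 10), a call without the fold limit, the block, single libraries left out, limma 3.58.1 on log2 RPKM with 0.5 or 0.1 added, and the NOISeq criterion (probability 0.8, 2-fold), re-implemented on the counts in Python 3.11.15 with 0.5 for 0 reads. The fits were checked on simulated data. By the study's methods each biological replicate combined several plants from different pots, so p-values measure the spread between such pools.

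Genes were named if called with or without the block, if among the 2 highest of a class by mean RPKM, if at either end of the log2 fold changes of a class among tested genes with non-overlapping groups, or if read in all libraries of one group and none of the other. Others are marked in the text. The genes, classes and lists were chosen with earlier results of these data known.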

Additional observations from a re-analysis of the deposited data

How the results depend on the processing

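The counts of called wall genes depended on the test. Against 0 of the 88 tested without the block, the replicate block called 2, DESeq2 called 2 and the NOISeq criterion 3, all higher in Gv. The shares of all genes called higher were 0.958% with the block, 1.15% by DESeq2 and 1.35% by the NOISeq criterion. DESeq2 with the block called 3 higher (orange1.1t04027, Cs1g21260 and Cs7g08820), and its share over all genes was not taken. With both number 3 libraries left out (added after seeing the data) 1 was called, Cs1g16550, lower in Gv, against 0.239% of all genes tested. With the block and each replicate number left out in turn 1 to 2 were called (Cs1g21260 with orange1.1t04027 or Cs8g16830, or Cs1g16550 alone). The shares of those blocked fits over all genes were not taken, so these counts have no base rate beside them. In the list of related wall genes, against 0, DESeq2 called 1, DESeq2 with the block 1, the NOISeq criterion 1 and the test without the number 3 libraries 1, and the replicate block called 0. The gene was Cs9g02570 except for the NOISeq criterion (Cs5g09090). Of all genes, DESeq2 called 0.0369% lower, the NOISeq criterion 0.323% and the test without the number 3 libraries 0.239%. The median log2 fold change of pectinesterases ran from -0.30 to -0.012 over single libraries left out, against -0.04, with -0.29 without Gv replicate 2 and -0.30 without control replicate 3. Scaling by library totals or upper quartiles moved the median of all genes by 0.01 at most. Among 32 named genes under 19 alternatives each (608 values), 67 values from 14 genes changed sign, all of genes with a fitted change of 0.44 or less in size, and the cause was not tested. Positive instead of negative were Cs3g01110 with library totals (0.002) and limma (0.009 with both pseudocounts), Cs5g01960 (0.26) and Cs5g01970 (0.17) without the number 3 libraries, Cs4g03130 with the block (0.44), DESeq2 with the block (0.50) and limma (0.49 and 0.50), Cs8g01880 (0.16, 0.16, 0.18 and 0.18) and Cs8g11330 (0.02, 0.05, 0.07 and 0.083) in the same order. Negative instead of positive was Cs7g18970 with the block (-0.042), DESeq2 with the block (-0.066), limma (-0.069 and -0.079) and no number 3 libraries (-0.16). With libraries or replicate numbers left out in turn the log2 fold changes ranged as follows: -0.20 to 0.10 for Cs2g17920, -1.38 to 0.79 for Cs2g30100, -0.14 to 0.10 for Cs3g01110, -0.68 to 1.16 for Cs4g03130, -0.43 to 0.26 for Cs5g01960, -0.42 to 0.17 for Cs5g01970, -0.42 to 0.35 for Cs5g02320, -0.77 to 0.28 for Cs5g03170, -0.47 to 0.23 for Cs7g01980, -0.84 to 0.013 for Cs7g08620, -0.22 to 0.37 for Cs7g18970, -0.65 to 0.63 for Cs8g01880, -0.77 to 0.46 for Cs8g11330 and -0.66 to 0.29 for Cs8g16840. Depth limits the 48 wall genes that were not tested.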

Other observations

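A gene outside the annotation rule stood beside the wall genes described above. The COBRA-like gene Cs5g33660, chosen after its values were seen, had 3, 10 and 51 reads in Gv, against 0 in each control library. COBRA proteins are membrane-anchored proteins needed for ordered cellulose deposition in Arabidopsis. The gene is among the 148 in the series with reads in all Gv libraries and none in control. Its identifier precedes that of the cellulose synthase Cs5g33670, with 95, 87 and 106 reads in Gv, against 82, 59 and 53 in control. Cs5g33670 was called by none of the tests, and any relation between these neighbours was not tested. Cs5g33660 did not pass the filter and was not tested.

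Of the 46 tested genes of the related list, 4 (8.70%) had all Gv libraries below all control libraries by RPKM and 0 had them above, against 3.26% and 5.35% of all genes tested. The 4 were chosen after their values were seen. The arabinofuranosidase Cs9g02570, an enzyme that trims arabinose side chains of wall polymers, had 65, 47 and 115 reads in Gv, against 159, 238 and 237 in control, with a log2 fold change of -1.44. The hybrid proline-rich protein genes Cs5g09090 (21, 28 and 43 reads in Gv, against 45, 82 and 94 in control) and orange1.1t02291 (9, 3 and 5 reads in Gv, against 22, 15 and 33 in control) had log2 fold changes of -1.22 and -1.97. Cs6g05450, annotated as UDP-glucuronic acid decarboxylase 1, had 287, 319 and 310 reads in Gv, against 373, 358 and 366 in control, with a log2 fold change of -0.23. None of the 4 was called by edgeR with or without the block, and DESeq2 called Cs9g02570.

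A pair of low-read wall genes drew most of their reads from Gv replicate 1 and not from Gv replicate 3. They were the arabinogalactan gene Cs8g16830 (208, 2 and 8 reads in Gv, against 28, 8 and 1 in control) and the cellulose synthase Cs4g02000 (76, 2 and 12 reads in Gv, against 9, 4 and 1 in control), both chosen after their values were seen.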
